A study of Homo sapiens with 6 samples.

Results

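The genes described here are 32 genes of cholesterol and fatty acid synthesis that are known targets or parts of the SREBP system. They were taken by symbol from the 13696 distinct genes in the authors' deposited table, and each of the 32 was found and passed the filter of a mean of at least 1 CPM (reads scaled to a common library total). By role they were 7 early sterol enzymes (acetoacetyl-CoA to squalene), 10 late sterol enzymes (squalene to cholesterol), 5 regulators and sterol carriers, and 10 fatty acid genes. The libraries came from hTERT RPE-1, a human line from retinal pigment epithelium that telomerase (hTERT) has made immortal. There were 3 libraries of cells given a pre-dose of 25 nM camptothecin, a drug that traps topoisomerase 1 on DNA, for 1 h and harvested 24 h after its removal, and 3 libraries of untreated cells. All cells were grown in serum-containing medium, the labels name no other agent or allele, and the titles of both groups carry the word Top1 without explaining it. Both groups are 1 cell line. The labels do not say whether replicates were separate cultures, and the p-values therefore reflect the spread among these libraries, which may be technical.

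SREBF1 and SREBF2 encode the sterol regulatory element-binding proteins SREBP-1 and SREBP-2, made as membrane proteins of the endoplasmic reticulum. When membrane sterol is low, the escort protein SCAP carries them to the Golgi, where proteases release the part that enters the nucleus and switches on lipid synthesis genes. INSIG proteins hold SCAP back when sterol is plentiful, and INSIG1 is itself an SREBP target. SREBP-2 is known mainly for cholesterol genes and SREBP-1 for fatty acid genes, often together with the factors NF-Y and SP1. Abundance of these mRNAs is measured here, not SREBP cleavage or lipid.

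The RefSeq promoters (GRCh38.p14) of 5 members are shown because their genes carry the results below: SREBF2 for the sterol element, MVK, NSDHL and EBP as sterol enzymes with a difference below 0 over all libraries and several NF-Y boxes, and TM7SF2 as the sterol enzyme with a difference above 0. Each runs from 250 bases before to 50 bases after the start used for that promoter, on the plus strand. The windows are chr22:41832855-41833154 (SREBF2), chr12:109573544-109573843 (MVK), chrX:152830813-152831112 (NSDHL), chrX:48521558-48521857 (EBP) and chr11:65111622-65111921 (TM7SF2). Those of MVK and EBP lie wholly inside the gene positions given below, so their starts are not the gene starts of those positions. Capitals mark the NF-Y box, CCAAT on either strand (ATTGG when read on the other), and in SREBF2 also the sterol element core TCACNCCAC.
SREBF2: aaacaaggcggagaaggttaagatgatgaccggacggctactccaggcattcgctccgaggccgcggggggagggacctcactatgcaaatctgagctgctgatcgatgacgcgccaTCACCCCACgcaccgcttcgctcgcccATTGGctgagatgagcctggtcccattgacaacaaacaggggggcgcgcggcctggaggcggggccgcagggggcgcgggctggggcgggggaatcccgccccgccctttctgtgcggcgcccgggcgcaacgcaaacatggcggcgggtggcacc
MVK: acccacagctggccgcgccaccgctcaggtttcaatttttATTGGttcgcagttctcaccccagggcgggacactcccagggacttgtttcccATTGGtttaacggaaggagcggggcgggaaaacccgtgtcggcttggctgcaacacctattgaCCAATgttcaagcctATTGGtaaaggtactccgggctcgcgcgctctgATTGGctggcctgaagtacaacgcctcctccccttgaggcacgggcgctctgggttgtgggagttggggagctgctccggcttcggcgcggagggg
NSDHL: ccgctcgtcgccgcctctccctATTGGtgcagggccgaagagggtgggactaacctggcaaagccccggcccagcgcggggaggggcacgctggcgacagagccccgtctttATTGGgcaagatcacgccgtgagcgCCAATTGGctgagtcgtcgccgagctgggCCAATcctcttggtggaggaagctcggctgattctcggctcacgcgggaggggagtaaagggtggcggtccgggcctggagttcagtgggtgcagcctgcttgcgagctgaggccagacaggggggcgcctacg
EBP: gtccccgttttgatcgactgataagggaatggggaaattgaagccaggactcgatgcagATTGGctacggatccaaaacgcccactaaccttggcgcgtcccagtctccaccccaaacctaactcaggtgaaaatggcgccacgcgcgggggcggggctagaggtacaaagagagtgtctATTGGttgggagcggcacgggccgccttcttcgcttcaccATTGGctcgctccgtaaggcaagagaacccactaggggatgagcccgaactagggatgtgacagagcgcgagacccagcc
TM7SF2: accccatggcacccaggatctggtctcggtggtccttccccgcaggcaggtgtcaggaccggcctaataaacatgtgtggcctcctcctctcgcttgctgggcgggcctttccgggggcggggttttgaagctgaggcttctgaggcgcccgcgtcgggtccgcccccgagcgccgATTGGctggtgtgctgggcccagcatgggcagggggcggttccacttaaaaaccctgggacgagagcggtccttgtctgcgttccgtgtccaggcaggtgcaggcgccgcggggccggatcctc

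In the table of promoters 29 of the 32 members had an entry, the others being FDFT1, SQLE and FASN. A CCAAT on either strand was found for 23 of the 29 members (79.3%), against 43.7% of the 9957 tested genes with an entry. Counting each start separately, 17 of 39 member promoters (43.6%) held 2 or more CCAAT, against 12.3% of the 14576 promoters of tested genes. MVK and NSDHL had 5 each, EBP had 3 and TM7SF2 had 1, and in NSDHL a CCAAT and an ATTGG overlap. Among sterol enzymes that were lower after the pre-dose in all 3 replicate pairs, PMVK and CYP51A1 had 0 and LSS had 1. A link between the number of CCAAT and the direction of the difference was not tested. The SP1 box GGGCGG was found for 27 of the 29 members (93.1%), against 77.1% of tested genes. The sterol element core TCACNCCAC was found in 1 member, SREBF2 (3.45%), against 1.41% of tested genes. The shorter core CACNCCAC, chosen after the first search and contained in the longer one, was found for 6 members (20.7%), against 7.65% of tested genes. These are matches of letters in a short window, and promoter classes were not matched for base composition.

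In both groups the replicate 1 library lay far from the other 2 of its group. Effective library totals were 26336941 to 31780391 reads, and the lowest member value, TM7SF2 in untreated replicate 1, rested on 119 reads. Of 13 retinal pigment epithelium markers 5 were measured (BEST1, MITF, OTX2, KRT8 and KRT18), with a median difference of -0.01, and of these KRT18 was called in the authors' deposited table (-0.14, adjusted p = 0.0420). Mean CPM was 48.7 in pre-dose and 45.5 in untreated libraries for MITF and 4.79 in pre-dose and 4.83 in untreated libraries for BEST1, while defining pigment and visual cycle genes such as RPE65, TYR and RLBP1 were not analysed here. Of 10 markers of blood, endothelium, neurons, keratinocytes and liver only SNAP25 was measured, at 1.49 ± 0.107 CPM in pre-dose and 1.22 ± 0.232 CPM in untreated libraries (SD, n = 3 each). In these bulk libraries fewer cells of a type and less RNA per cell cannot be told apart.

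Of the 32 genes, 22 were lower after the pre-dose in all 3 replicate pairs and 2 were higher in all 3, against 16.3% and 15.6% of all 13616 genes tested. TM7SF2 and ACSS2 were the 2 higher genes. The median difference of the 32 genes, pre-dose minus untreated on the log2(CPM + 1) scale, was -0.09, -0.19 and -0.28 in the replicate 1, 2 and 3 pairs. The median of all genes tested lay at -0.0039, -0.0024 and 0.0012. The differences were small. The median over all libraries was -0.18, and the range ran from -0.41 for SCD to 0.36 for TM7SF2.

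No member passed limma-trend at an adjusted p of 0.05 over all genes (adjusted p = 1.00 for each), as no gene did among the 13616 (0 lower and 0 higher, 0% each; 280 had an unadjusted p under 0.05, and voom called 0). At an unadjusted p under 0.05 there were 2 members, EBP and FASN, both lower, and 0 higher, against 0.808% of genes lower and 1.25% higher. With library weights 2 members passed as lower, FASN and FADS1, and 0 as higher, against 0.595% and 0.793% of genes. With the replicate number as a block, which removes the offset of the replicate 1 libraries, again no gene passed after adjustment (0%; 1443 had an unadjusted p under 0.05). In that fit 22 members had an unadjusted p under 0.05 as lower and 1, TM7SF2, as higher, against 5.40% and 5.20% of genes. INSIG1 and SCD ranked 2 and 4 by p among all 13616 genes there, each with an adjusted p of 0.138 in limma. In replicates 2 and 3 alone, 22 members passed as lower and 1 as higher, against 3.47% and 2.89% of genes. The authors' deposited table had 4 members past an adjusted p of 0.05, MVK, NSDHL, FASN and FADS1, all lower, and 0 higher, against 1.45% of its genes called lower and 1.61% higher.

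**Figure D1:**
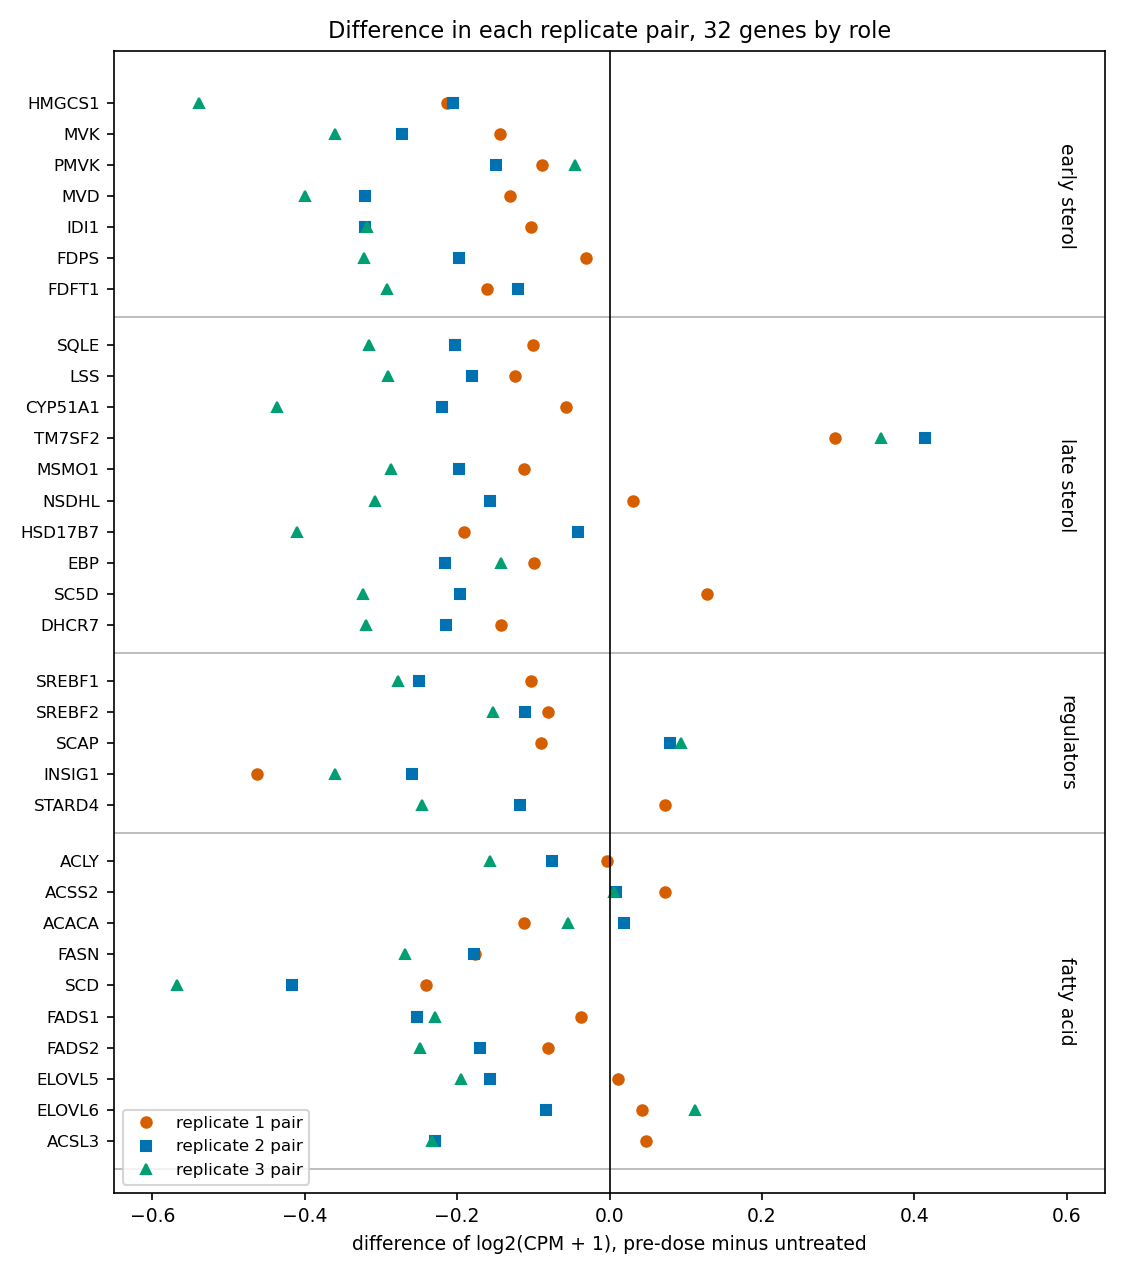
Difference of log2(CPM + 1), pre-dose minus untreated, in each replicate pair (circle, square and triangle for replicates 1, 2 and 3) for the 32 genes, grouped by role. Most points lie left of 0, TM7SF2 lies right of it in all 3 pairs, and the replicate 3 pair gives the lowest value for SCD, -0.57.

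The early sterol enzymes were lower after the pre-dose, each of the 7 in all 3 pairs, against 16.3% of all genes tested. These enzymes build isoprenoid units from acetoacetyl-CoA and join them into squalene. Their median difference was -0.13, -0.21 and -0.32 in the replicate 1, 2 and 3 pairs. In replicates 2 and 3 alone 6 of the 7 passed as lower, against 3.47% of genes. PMVK, also lower, did not pass (adjusted p = 0.502 in limma). The mean log2(CPM + 1) of the 7 genes was 5.40, 5.79 and 5.72 in pre-dose replicates 1, 2 and 3, and 5.52, 6.02 and 6.04 in untreated replicates 1, 2 and 3.

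MVK, mevalonate kinase (chromosome 12, 109573255 to 109598117, GRCh38), had 24.7, 29.5 and 29.1 CPM in pre-dose replicates 1, 2 and 3, and 27.4, 35.9 and 37.6 CPM in untreated replicates 1, 2 and 3. Each pre-dose library was below its untreated partner, but the groups overlapped through untreated replicate 1. On the log2 scale it differed by -0.26 (95% interval -0.57 to 0.05, and -0.39 to -0.13 with the block). In the authors' deposited table it was -0.33 (adjusted p = 0.0373).

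MVD, which decarboxylates mevalonate pyrophosphate, had 38.0, 52.9 and 50.6 CPM in pre-dose replicates 1, 2 and 3, and 41.7, 66.3 and 67.0 CPM in untreated replicates 1, 2 and 3. Its difference was -0.13, -0.32 and -0.40 in the 3 pairs, and it fell in replicates 2 and 3 alone (-0.36, adjusted p = 0.00143 in limma). IDI1, the isomerase of isoprenoid units, had 26.4, 38.4 and 36.9 CPM in pre-dose replicates, and 28.5, 48.3 and 46.2 CPM in untreated replicates. FDPS, which makes farnesyl pyrophosphate, had 123, 154 and 151 CPM in pre-dose replicates, and 125, 177 and 189 CPM in untreated replicates. In both genes the replicate 1 pair was close together and the other 2 pairs were further apart. For FDPS, 8 pseudogenes carry its name and 18.6% of its exon bases overlap the antisense gene RUSC1-AS1, so its counts are less certain. The same holds for IDI1, of whose exon bases 14.8% overlap the antisense gene IDI2-AS1.

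HMGCS1, the synthase that makes HMG-CoA, was singled out after its values were seen, as the early enzyme with the greatest difference. Its counts too are less certain, since 15.0% of its exon bases overlap the antisense gene AC114947.2. It had 29.2, 61.9 and 49.9 CPM in pre-dose replicates 1, 2 and 3, and 34.0, 71.5 and 73.0 CPM in untreated replicates 1, 2 and 3. Replicate 1 minus the mean of the other libraries of its group was -0.91 in pre-dose and -1.07 in untreated cells on the log2 scale, while pre-dose minus untreated was -0.32. FDFT1, squalene synthase, was lower in each pair by -0.16, -0.12 and -0.29. PMVK, phosphomevalonate kinase, differed by -0.09, -0.15 and -0.05, and unlike the other 6 it stood higher in the replicate 1 libraries.

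The late sterol enzymes were lower in 7 of 10 cases in all 3 pairs, against 16.3% of all genes tested. These enzymes oxidise squalene, close it into lanosterol and trim that to cholesterol. Their median difference was -0.10, -0.20 and -0.31 in the replicate 1, 2 and 3 pairs. TM7SF2 was higher in all 3 pairs, while NSDHL and SC5D were higher in the replicate 1 pair and lower in the others. In replicates 2 and 3 alone 8 of the 10 passed as lower and TM7SF2 as higher, against 3.47% and 2.89% of genes. HSD17B7, also lower, did not pass (adjusted p = 0.246 in limma).

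EBP, the sterol isomerase (chromosome X, 48521158 to 48528716), had 47.2, 42.9 and 44.8 CPM in pre-dose replicates 1, 2 and 3, and 50.6, 49.99 and 49.6 CPM in untreated replicates 1, 2 and 3. All pre-dose libraries were below all untreated ones, and the untreated libraries differed little among themselves. EBP was 1 of 2 members whose groups did not overlap with pre-dose lower, against 3.19% of all genes tested (0 members did so with pre-dose higher, against 3.36%). Its difference was -0.15 with an interval of -0.29 to -0.01, an unadjusted p of 0.0395 and an adjusted p of 1.00 in limma. It was also 1 of 3 members, with NSDHL and ACLY, for which the comparison of replicate 1 with the other libraries did not pass in limma (adjusted p = 0.294 for EBP).

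NSDHL, a sterol dehydrogenase (chromosome X, 152830967 to 152869729), had 28.8, 30.0 and 28.4 CPM in pre-dose replicates 1, 2 and 3, and 28.1, 33.5 and 35.3 CPM in untreated replicates 1, 2 and 3. The pre-dose libraries lay close together, and the untreated replicate 1 was below all of them. The authors' deposited table gave NSDHL a difference of -0.26 (adjusted p = 0.0430), against -0.14 with an interval of -0.36 to 0.07 here. CYP51A1, lanosterol demethylase, had 47.6, 66.9 and 57.3 CPM in pre-dose replicates, and 49.5, 78.1 and 77.9 CPM in untreated replicates. Of its exon bases 79.4% are shared with an overlapping annotated gene, AC000120.2, on the same strand, and 3 pseudogenes carry its name, so its counts are uncertain. HSD17B7, a sterol ketoreductase with 2 named pseudogenes, had 6.23, 8.93 and 7.52 CPM in pre-dose replicates, and 7.25, 9.22 and 10.3 CPM in untreated replicates, with groups that overlapped.

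TM7SF2, the sterol reductase that acts after CYP51A1 (chromosome 11, 65111845 to 65116384), went the other way and was singled out after its values were seen. It had 5.21, 13.3 and 12.6 CPM in pre-dose replicates 1, 2 and 3, and 4.06, 9.74 and 9.60 CPM in untreated replicates 1, 2 and 3. Each pre-dose library was above its untreated partner, by 0.30, 0.41 and 0.36 on the log2 scale, but pre-dose replicate 1 was below untreated replicates 2 and 3. The difference was 0.36 with an interval of -0.58 to 1.29, and 0.18 to 0.53 with the block. In replicates 2 and 3 alone it rose by 0.39 (adjusted p = 0.0200 in limma). LBR, a lamina protein with the same reductase activity and no member of the 32, had 56.2, 44.8 and 46.1 CPM in pre-dose replicates, and 51.4, 52.7 and 52.2 CPM in untreated replicates. LBR was thus higher in the replicate 1 pair and lower in the others, by 0.13, -0.23 and -0.18.

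SQLE, which oxidises squalene, was lower by -0.10, -0.20 and -0.32 in the 3 pairs, and LSS, which closes the ring, by -0.12, -0.18 and -0.29. DHCR7, the reductase of the last step of one branch, differed by -0.14, -0.21 and -0.32, and MSMO1, a sterol methyl oxidase, by -0.11, -0.20 and -0.29. For SC5D, a desaturase, the values were 0.13, -0.20 and -0.32. These 5 enzymes lay between -0.14 and 0.13 in the replicate 1 pair and between -0.32 and -0.29 in the replicate 3 pair.

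**Figure D2:**
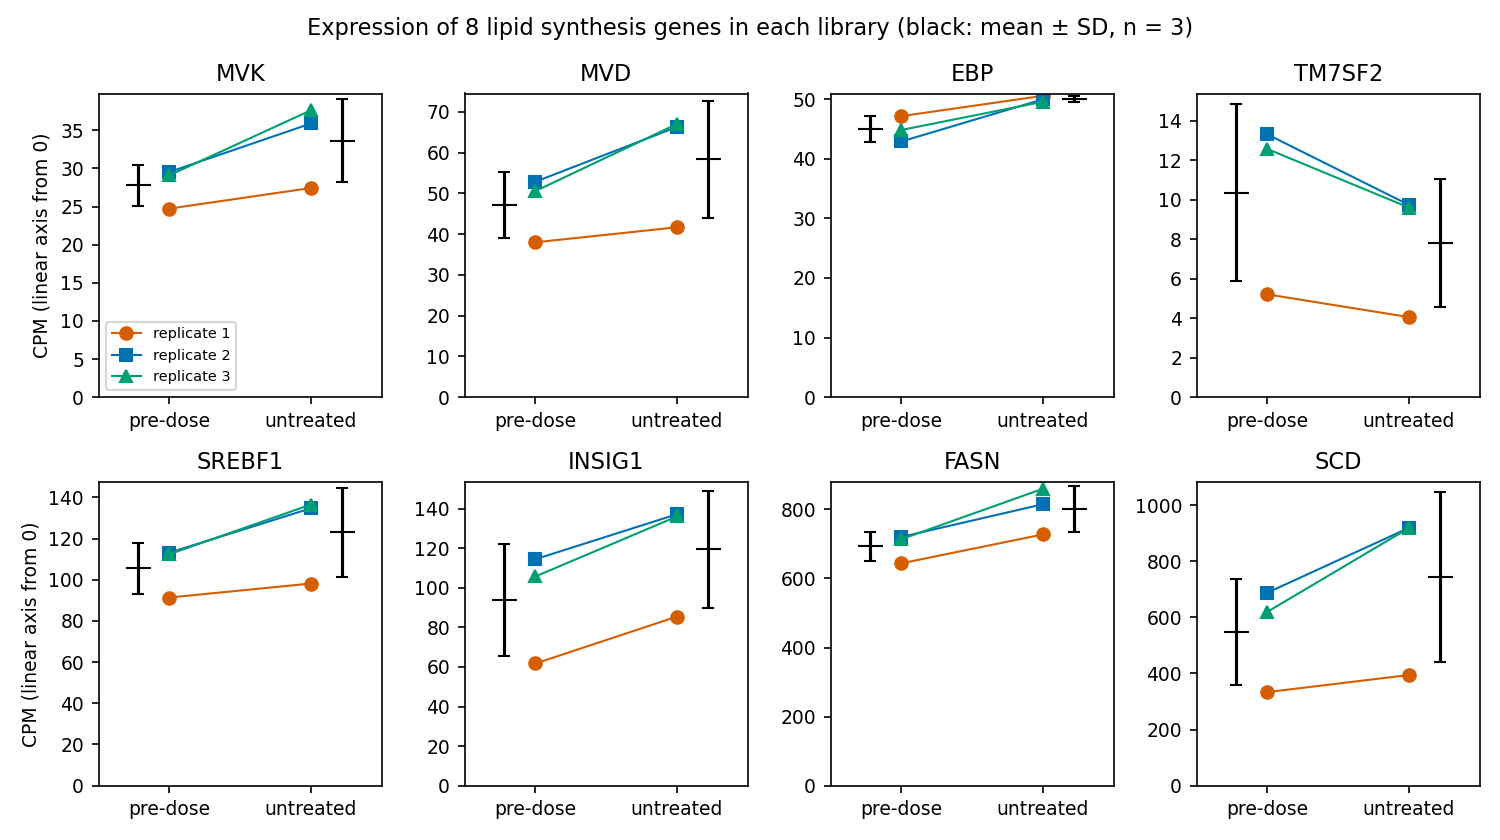
CPM of 8 genes in each library, on linear axes from 0, with pre-dose left and untreated right. Lines join libraries of the same replicate number and black bars are the mean ± SD (n = 3). The replicate 1 lines lie below the others except for EBP, and SCD reaches 919 CPM in untreated replicates 2 and 3.

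Of the 5 regulators INSIG1, SREBF1 and SREBF2 were lower in all 3 pairs, against 16.3% of all genes tested, and SCAP and STARD4 were not. INSIG1 (chromosome 7, 155297776 to 155310235) had 61.8, 114 and 106 CPM in pre-dose replicates 1, 2 and 3, and 85.5, 137 and 136 CPM in untreated replicates 1, 2 and 3. Each pre-dose library was below its partner, and the replicate 1 pair showed the greatest difference, -0.46, against -0.26 and -0.36. No other member had as low a value in the replicate 1 pair. Its difference was -0.36 with an interval of -0.99 to 0.27, and -0.46 to -0.26 with the block.

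SREBF1 (chromosome 17, 17810399 to 17837002) had 91.4, 113 and 112 CPM in pre-dose replicates 1, 2 and 3, and 98.2, 135 and 137 CPM in untreated replicates 1, 2 and 3. It fell in replicates 2 and 3 alone (-0.26, adjusted p = 0.00211 in limma). SREBF2 (chromosome 22, 41833079 to 41907308) had 163, 233 and 223 CPM in pre-dose replicates 1, 2 and 3, and 172, 252 and 248 CPM in untreated replicates 1, 2 and 3. The 3 pairs of SREBF2 differed by -0.08, -0.11 and -0.15, and it did not pass in replicates 2 and 3 alone (adjusted p = 0.0503 in limma). STARD4, a cytosolic sterol carrier, had 25.6, 44.1 and 38.9 CPM in pre-dose replicates, and 24.3, 47.9 and 46.3 CPM in untreated replicates, so its replicate 1 pair went the other way. SCAP differed by -0.09, 0.08 and 0.09 in the 3 pairs, with an interval of -0.21 to 0.26 over all libraries.

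Of the 10 fatty acid genes, 5 were lower in all 3 pairs (ACLY, FASN, SCD, FADS1 and FADS2), against 16.3% of all genes tested. Only 1, ACSS2, was higher in all 3, against 15.6%. The 10 genes supply acetyl-CoA, build palmitate, and elongate, desaturate and activate fatty acids. Their median difference was -0.02, -0.16 and -0.21 in the replicate 1, 2 and 3 pairs. In replicates 2 and 3 alone 6 passed as lower, FASN, SCD, FADS1, FADS2, ELOVL5 and ACSL3, against 3.47% of genes. ACLY and ACACA were lower there without passing.

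FASN, fatty acid synthase (chromosome 17, 82078333 to 82098332), had 644, 720 and 714 CPM in pre-dose replicates 1, 2 and 3, and 728, 815 and 860 CPM in untreated replicates 1, 2 and 3. No pre-dose library reached the lowest untreated one, so the groups did not overlap. The difference was -0.21 with an interval of -0.40 to -0.02, an unadjusted p of 0.0351 and an adjusted p of 1.00 in limma, and the 3 pairs gave -0.18, -0.18 and -0.27. In the authors' deposited table FASN had -0.23 (adjusted p = 0.0331).

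FADS1, the delta-5 desaturase (chromosome 11, 61799625 to 61829318), had 133, 143 and 141 CPM in pre-dose replicates 1, 2 and 3, and 137, 170 and 165 CPM in untreated replicates 1, 2 and 3. Untreated replicate 1 lay among the pre-dose libraries, and the authors' deposited table gave -0.23 (adjusted p = 0.0368). ELOVL5, an elongase of polyunsaturated fatty acids, had 103, 110 and 106 CPM in pre-dose replicates, and 102, 123 and 121 CPM in untreated replicates. ACLY, which makes cytosolic acetyl-CoA from citrate, had 482, 444 and 439 CPM in pre-dose replicates, and 483, 468 and 490 CPM in untreated replicates. For ELOVL5 and ACLY the replicate 1 pair was nearly level.

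SCD, the stearoyl-CoA desaturase with 1 named pseudogene, was singled out after its values were seen, as the member with the lowest difference. It had 334, 688 and 620 CPM in pre-dose replicates 1, 2 and 3, and 395, 919 and 919 CPM in untreated replicates 1, 2 and 3. Its difference was -0.41 with an interval of -1.32 to 0.50, and -0.53 to -0.28 with the block, and in replicates 2 and 3 alone it fell by 0.49 (adjusted p = 3.99e-04 in limma). FADS2, the delta-6 desaturase, also with 1 named pseudogene, was lower by -0.08, -0.17 and -0.25 in the 3 pairs. ACSL3, which activates fatty acids, differed by 0.05, -0.23 and -0.23.

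The fatty acid genes nearest to 0 were ACSS2, ACACA and ELOVL6. ACSS2, which makes acetyl-CoA from acetate, had 29.3, 36.5 and 34.0 CPM in pre-dose replicates, and 27.8, 36.3 and 33.8 CPM in untreated replicates, an interval of -0.25 to 0.31. ACACA, acetyl-CoA carboxylase, had an interval of -0.23 to 0.13, and ELOVL6, an elongase of saturated fatty acids, -0.17 to 0.22. With the block the intervals were -0.08 to 0.14 for ACSS2, -0.13 to 0.04 for ACACA and -0.08 to 0.13 for ELOVL6. The median of the 32 genes, -0.18, lies inside the unblocked intervals of ACSS2 and ACACA and outside all 3 blocked ones.

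Set side by side, the median difference of the sterol enzymes was further below 0 than that of the fatty acid genes in each pair, by a margin that depended on single libraries. The median of the 17 sterol enzymes minus that of the 10 fatty acid genes was -0.08, -0.03 and -0.11 in the replicate 1, 2 and 3 pairs, a mean of -0.07 ± 0.037 (SD over 3 pairs). From the means of the same genes in place of the medians it was -0.03, -0.01 and -0.10. Over all libraries the difference of medians was -0.07, and it was 0.00045 without pre-dose replicate 1, -0.15 without pre-dose replicate 2, -0.16 without untreated replicate 1 and -0.12 without the replicate 2 pair. The early minus late sterol difference of medians was -0.03, -0.01 and -0.01 in the 3 pairs, a mean of -0.02 ± 0.012 (SD over 3 pairs). From the means, to which TM7SF2 contributes, it was -0.09, -0.11 and -0.08. Over all libraries the difference of medians was -0.05, and it was 0.0052 without pre-dose replicate 2, -0.0062 without untreated replicate 1 and -0.08 in replicates 2 and 3 alone. As the genes were chosen with earlier results of these libraries known, no p is given for these scores.

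**Figure D3:**
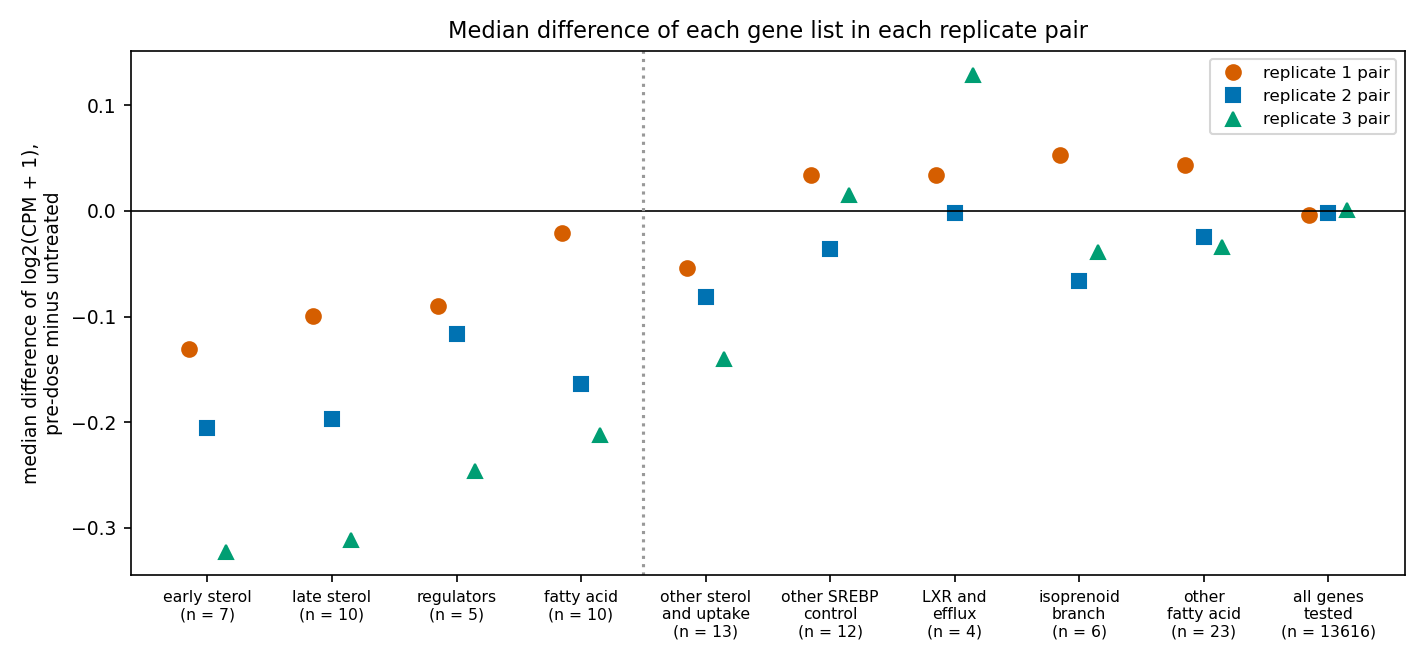
Median difference of log2(CPM + 1), pre-dose minus untreated, of each gene list in each replicate pair. Lists left of the dotted line are the 32 genes by role, and lists right of it are other pathway genes and all genes tested. The early sterol medians run from -0.32 to -0.13, and those of all genes tested from -0.0039 to 0.0012.

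Members that differed more in the replicate 2 pair also did so in the replicate 3 pair. Across the 32 genes the differences in these pairs, which share no library, had a Pearson correlation of 0.82 (Spearman 0.65), against 0.24 (0.39) across all 13616 genes. Pairs 1 and 2 gave 0.56, and pairs 1 and 3 gave 0.60, against 0.07 and -0.13 across all genes. TM7SF2 lies far from the other genes in each, and genes are not independent replicates.

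In these genes the offset of replicate 1 from the mean of replicates 2 and 3 was often greater than the treatment difference. It was below 0 in both groups for 27 of the 32 genes, and above 0 in both for 5 (PMVK, EBP, SCAP, ACLY and ELOVL6). Its median was -0.36 in pre-dose and -0.53 in untreated libraries on the log2 scale, against -0.01 in both groups for all genes tested. SCD had the lowest offset in untreated libraries, -1.22, and TM7SF2 the lowest in pre-dose libraries, -1.17. In limma with treatment in the model, chosen after the data were seen, 26 members were lower and 3 higher in replicate 1, against 20.6% and 20.3% of genes. Across the 32 genes the offsets in pre-dose and in untreated libraries, which share no library, had a Pearson correlation of 0.94 (Spearman 0.94), against 0.66 (0.70) across all genes. What sets replicate 1 apart is not given in the labels, and its part in the smaller treatment differences of that pair was not tested.

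**Figure D4:**
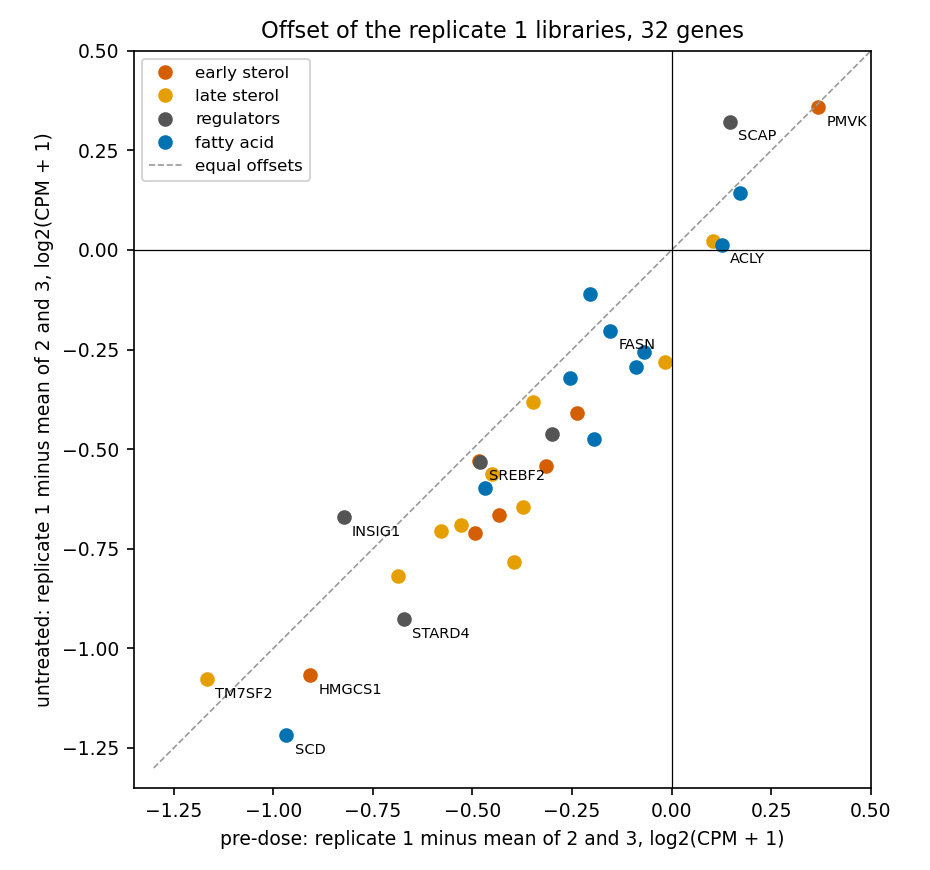
Offset of replicate 1 from the mean of replicates 2 and 3 on the log2(CPM + 1) scale in pre-dose (horizontal) and untreated libraries (vertical) for the 32 genes, coloured by role. Points lie along the line of equal offsets, mostly below it, from -1.22 for SCD to 0.36 for PMVK on the vertical axis.

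Per kilobase of annotated exon, the members spanned a wide range of levels. SCD was the highest at 102 CPM per kb in pre-dose and 139 CPM per kb in untreated libraries. ACLY had 87.2 and FASN 74.0 CPM per kb in pre-dose libraries, against 92.1 for ACLY and 85.5 for FASN in untreated libraries. HSD17B7 was the lowest in both groups, with 1.58 in pre-dose and 1.87 CPM per kb in untreated libraries, and TM7SF2 had 3.04 in pre-dose and 2.29 CPM per kb in untreated libraries.

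Over all libraries the medians of the other pathway lists lay nearer to 0 than those of each role. In the replicate 1 pair the fatty acid median, -0.02, was nearer to 0 than each of theirs. Those ran from -0.05 for the other sterol and uptake list to 0.05 for the isoprenoid list. No gene of the other lists passed limma over all libraries (adjusted p = 1.00 for each). Of 13 measured genes of the other sterol and uptake list 6 were lower in all 3 pairs and 1 higher. The shares over all genes tested were 16.3% and 15.6%. The list had a median of -0.03 over all libraries. In replicates 2 and 3 alone, where 3.47% of genes passed as lower, 3 of the list did. ACAT2 and LBR were among them. NPC2, a lysosomal cholesterol carrier, had 147 ± 5.22 CPM in pre-dose and 140 ± 4.10 CPM in untreated libraries (SD, n = 3 each).

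The SREBP control list, of the proteases, INSIG2, ligases and cofactors, had a median of 0.01. In limma 0 of 12 passed, over all libraries or in replicates 2 and 3 alone. In the latter 3.47% of all genes passed as lower and 2.89% as higher. MBTPS2, the second protease that releases SREBPs, had 37.5 ± 2.60 CPM in pre-dose and 34.3 ± 1.14 CPM in untreated libraries, and ERLIN1, which binds cholesterol in the endoplasmic reticulum, had 126 ± 11.8 CPM in pre-dose and 134 ± 3.77 CPM in untreated libraries (SD, n = 3 each). The subunits NFYA, NFYB and NFYC and SP1 differed by -0.04, -0.06, 0.10 and -0.03 over all libraries.

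Of 4 measured LXR and efflux genes 1, ABCA1, passed in replicates 2 and 3 alone and was higher in all 3 pairs. LPCAT3 was lower in all 3 pairs, by -0.03, -0.02 and -0.10, and NR1H2 differed by -0.14, 0.02 and 0.05. Over all genes tested 2.89% passed as higher in replicates 2 and 3 alone. In all 3 pairs 15.6% were higher and 16.3% lower. ABCA1 exports cholesterol and had 54.5, 94.2 and 92.2 CPM in pre-dose replicates 1, 2 and 3, and 50.8, 77.1 and 79.7 CPM in untreated replicates 1, 2 and 3. Its difference was 0.20 over all libraries and 0.25 in replicates 2 and 3 alone (adjusted p = 0.00526 in limma). NR1H3, which encodes LXR-alpha, had 7.26 ± 0.473 CPM in pre-dose and 6.67 ± 0.396 CPM in untreated libraries (SD, n = 3 each).

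In the isoprenoid list, of enzymes that turn farnesyl pyrophosphate to other ends, 0 of 6 passed in limma in replicates 2 and 3 alone. Over all genes tested 3.47% passed there as lower and 2.89% as higher. The median of the isoprenoid list was 0.01. PDSS1 had 4.92, 2.93 and 4.15 CPM in pre-dose replicates, and 4.87, 3.74 and 4.96 CPM in untreated replicates. COQ2 had 13.9 ± 1.47 CPM in pre-dose and 14.4 ± 1.59 CPM in untreated libraries (SD, n = 3 each). Both genes act in ubiquinone synthesis. Of 23 other fatty acid genes 2 were lower and 3 higher in all 3 pairs, against 16.3% and 15.6% of genes. Their median was 0.01. HACD2, a dehydratase of fatty acid elongation, had 66.9 ± 3.62 CPM in pre-dose and 74.2 ± 5.73 CPM in untreated libraries, and was the list's call in the authors' deposited table (-0.21, adjusted p = 0.0475). SLC25A1, the mitochondrial citrate carrier, had 136 ± 8.04 CPM in pre-dose and 144 ± 10.8 CPM in untreated libraries (SD, n = 3 each).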

How the data were processed

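RNA-seq libraries, 3 pre-dose and 3 untreated, were grouped and numbered from the sample titles. The authors deposited 1 table of 13773 rows, of which 77 repeated an identifier and were dropped, with 1 column per library. These deposited values were read as log2 CPM with a prior count of 0.5: the labels name the columns but no unit, and 2 raised to the values sums to about the same total in each library. The authors also deposited their own comparison, with log2 fold changes, p-values and adjusted p-values, and a moderated statistic and other scores that were not used, per the file headers. Its sign was untreated minus pre-dose, from the sample columns, and was turned here. bcl2fastq, DRAGEN, edgeR and limma, with hg38, are named in the submitters' processing notes; how reads were counted, with which strand setting and with what weights, is not given in the sources used here.

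Values were read as CPM by raising 2 to them. The lowest value of each library was taken as 0 reads with 0.5 added, which gave the effective totals, and at these 3 reads are 0.0944 to 0.114 CPM (counting error alone). As the unit is log2 CPM and raw counts were not used here, the test was limma-trend on log2(CPM + 1) of 13616 genes (mean CPM of 1 or more), with Benjamini-Hochberg adjustment over all of them, a threshold of 0.05, and 95% intervals unadjusted (R 4.3.3, limma 3.58.1, pandas 2.3.3, matplotlib 3.10.9). This scale understates the change of low genes. The fit was tested on simulated data with no replicate offset and with planted changes larger than the members' differences. That test cannot show how the fit performs on libraries with the offset of replicate 1. Fits of replicates 2 and 3 alone had no block.

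The groups share replicate numbers. Correlations across genes of the deviations of same-numbered libraries from their group means were 0.66, 0.45 and 0.18 for replicates 1, 2 and 3. By these the number pairs the replicate 1 libraries only. Pre-dose replicate 2 with untreated replicate 3 gave 0.51, and pre-dose replicate 3 with untreated replicate 2 gave 0.28. The pairing of replicates 2 and 3 is thus an assumption the labels do not state. P-values and intervals come from the fit without the block unless the block is named, and differences are also given per pair. Alternatives were a pseudocount of 0.5 CPM, no filter, the block, another scaling, voom, library weights, each library left out, replicates 2 and 3 alone and, added later, each pair left out.

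Members, lists and tests were chosen with earlier results of these data known. Values in every library were given for the 4 members of each role with the smallest unadjusted p, for SREBF1, SREBF2 and INSIG1, and for members that the authors' deposited table calls; for other lists the 2 genes with the smallest p were named, except that 1 of the other sterol and uptake list is not reported here, and other genes were named after their values were seen. Gene positions, exons and pseudogene names are those of GENCODE 29 (GRCh38), where all 32 members were found.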

Additional observations from a re-analysis of the deposited data

How the results depend on the processing

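A pseudocount of 0.5 CPM, no filter on low genes, median-of-ratios scaling, voom and the replicate block changed no member's direction or call and no count of calls, and moved no median by more than its spread; the block, given above where it bears on a result, changed no other call. Counts of calls were 0 for all genes and 0 members with all libraries, 866 and 23 in replicates 2 and 3 only, and 189 and 2 (FASN and FADS1) with library weights, which were lowest for replicate 1. Leaving out 1 library or 1 pair gave 0 to 1227 genes and 0 to 26 members; the highest counts were without the replicate 1 pair, and without the replicate 3 pair 11 genes passed. With 1 library left out and no block, the offset of its partner enters the difference. Over these settings the medians ran from -0.39 to -0.08 for sterol enzymes, from -0.23 to -0.062 for fatty acid genes, from -0.40 to -0.083 for early and -0.389 to -0.040 for late sterol enzymes. Each of these 4 medians was furthest below 0 without untreated replicate 1; it was nearest to 0 without pre-dose replicate 1 for the sterol lists and without untreated replicate 3 for fatty acid genes. The sterol minus fatty acid median ran from -0.15697 to 0.00045, above 0 without pre-dose replicate 1, and the early minus late median from -0.0774 to 0.0052, above 0 without pre-dose replicate 2 (-0.077 in replicates 2 and 3 only). Single genes turned direction only where 1 library or pair was left out, with the ranges -0.216 to 0.025 for PMVK, -0.0038 to 0.7444 for TM7SF2, -0.471 to 0.031 for MSMO1, -0.3918 to 0.0059 for SC5D, -0.292 to 0.045 for SREBF2, -0.034 to 0.135 for SCAP, -0.406 to 0.127 for STARD4, -0.079 to 0.114 for ACSS2, -0.098 to 0.020 for ACACA, -0.033 to 0.097 for ELOVL6, and ACSS2 also with library weights (-0.0069). The cause was not tested. The lowest member value rested on an estimated 119 reads, and the part of counting error in the differences was not tested.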
